A study of Mus musculus with 16 samples.

Results

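The genes described are 10 integrin subunits of the mouse aortic wall: the alpha subunits Itga1, Itga5, Itga7, Itga8, Itga9 and Itgav, and the beta subunits Itgb1, Itgb3, Itgb5 and Itgb8. They were found by their symbols among the 31055 features of the deposited count tables, and all 10 were present once. Each was measured in 4 classes of cells defined by other genes. Vascular smooth muscle cells (VSMCs) had at least 5 unique molecular identifiers (UMIs, tags that count captured RNA molecules) of Myh11 and more of Myh11 than of Dcn. Fibroblasts had at least 5 UMIs of Dcn and more of Dcn than of Myh11, endothelium had at least 2 UMIs of Pecam1 and Cdh5 together, and leukocytes had at least 2 UMIs of Ptprc and Tyrobp together. Integrin transcripts played no part in these rules.

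The study sequenced single cells of the thoracic aorta, from the root to the arch, in 16 libraries of 1 mouse each. Mice labelled Smad3SmKO carried floxed Smad3, which encodes a transcription factor of the TGF-β pathway, and were compared with Smad3+/+ mice to ask what the loss of Smad3 from VSMCs does to the aortic transcriptome before and during dilation of the root. There were 2 Smad3+/+ and 2 Smad3SmKO libraries at 10 weeks after deletion, and 5 Smad3+/+ and 7 Smad3SmKO libraries at 18 weeks. All mice were on the 129S6/SvEv background, carried a tamoxifen-inducible Myh11-CreER transgene and received tamoxifen for 5 days at 6 weeks of age, so that they were 16 or 24 weeks old at collection. The controls therefore shared the transgene and the drug. Because Myh11-CreER lies on the Y chromosome, only males were studied, and because the Myh11 promoter drives it, deletion was directed at cells that expressed Myh11 at the time of tamoxifen. The labels also gave a batch from 1 to 6, a digestion of 30 or 60 min, and whether a green fluorescent tracer allele was present. The 10-week libraries were all of batch 4 and digested for 60 min, with the tracer label given to Smad3+/+ and not to Smad3SmKO, although tracer transcripts were found in both.

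Integrins are heterodimers of an alpha and a beta subunit that span the membrane and tie the cytoskeleton to the extracellular matrix. In the aortic media they link smooth muscle cells to laminins, collagens, fibronectin and the microfibrils around elastic fibers, and pass tension across the wall. Several of those that contain the αv subunit also bind the latent form of TGF-β and can release the active cytokine, which then signals through Smad2 and Smad3. The β1 subunit pairs with α1, α5, α7, α8, α9 and αv, whereas β3, β5 and β8 pair with αv among the subunits described here.

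After filtering, 50858 cells of 66349 were kept, 631 to 6497 per library, with 12180168 to 48813151 UMIs per library, and the 2442 cells that met the rule of more than 1 class were left out. The classes held 8648 VSMCs (20 to 1675 per library), 33954 fibroblasts (192 to 5132), 1226 endothelial cells (3 to 164) and 2946 leukocytes (10 to 834). In each class all 8 of its 8 fixed marker genes were higher than in the other 3 classes. Of the 50541 distinct cell barcodes, 315 (0.623%) were found in more than 1 library, at most 11 for any pair. Fibroblasts of Smad3SmKO 18-week replicate 7 (192 cells) stood apart, with summed VSMC markers of 14140 CPM (UMIs of a gene per 1000000 UMIs of all genes in that class of that library) against 665 to 4067 in the other 15 libraries. In VSMCs, Smad3 itself was at a mean of 5.04 (SD 0.410) CPM in Smad3+/+ and 6.58 (SD 1.89) in libraries labelled Smad3SmKO at 10 weeks, and 7.08 (SD 2.97) and 9.52 (SD 4.72) at 18 weeks. The tags lie at the 3′ end, and where the deleted exons lie relative to them is not given in the sources used here, so this does not check the deletion. The study checked the deletion in aortas by immunoblot and by qPCR relative to Myh11. It reported less Smad3 protein and RNA in Smad3SmKO mice. Tracer transcripts were at 0 UMIs in the 5 Smad3+/+ 18-week libraries, of which 2 were labelled as carrying the tracer, and at 340 UMIs in the 10-week Smad3SmKO VSMCs, which were labelled as lacking it, beside 454 UMIs in the 10-week Smad3+/+ VSMCs.

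By median level, 7 of the 10 subunits were highest in VSMCs, Itgav and Itgb8 were highest in fibroblasts, and Itga1 was highest in endothelium. Levels are in CPM throughout. A 3′ tag counts a molecule whatever its length, so no length term was used. How well each gene is captured was not assessed, so ranks and shares of different genes describe captured tags. Itgb1, the common β1 subunit, was the highest, with 1125, 1602 and 1949 CPM as the lowest, median and highest of 16 VSMC libraries. Itga8, whose α8β1 receptor binds nephronectin and fibronectin, followed with 523, 765 and 1500.1. The ranges of these 2 genes overlapped over the 16 libraries. The gap to the next gene was wider, and the lowest Itga8 value lay above the highest value of every remaining subunit.

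Both genes are shown here with the bases just before their annotated starts, because they carry most of the alpha and beta transcripts of VSMCs and the gene deleted in this study encodes a DNA-binding SMAD. Itga8 spans chr2:12106632-12301922 on the minus strand of GRCm38 (mm10), and Itgb1 spans chr8:128685654-128733200 on the plus strand. The windows are the 250 bases before the RefSeq start on GRCm38.p6, chr2:12301945-12302194 (minus strand) for Itga8 and chr8:128685404-128685653 (plus strand) for Itgb1, written 5′ to 3′ on the strand of the gene. Capitals mark CAGAC, the SMAD-binding element, on either strand, so that GTCTG is the same letters read on the other strand.
Itga8: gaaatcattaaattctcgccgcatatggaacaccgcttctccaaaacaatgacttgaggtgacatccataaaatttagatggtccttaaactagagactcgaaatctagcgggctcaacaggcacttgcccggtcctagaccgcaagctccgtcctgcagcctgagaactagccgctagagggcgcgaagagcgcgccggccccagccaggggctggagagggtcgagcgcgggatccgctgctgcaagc
Itgb1: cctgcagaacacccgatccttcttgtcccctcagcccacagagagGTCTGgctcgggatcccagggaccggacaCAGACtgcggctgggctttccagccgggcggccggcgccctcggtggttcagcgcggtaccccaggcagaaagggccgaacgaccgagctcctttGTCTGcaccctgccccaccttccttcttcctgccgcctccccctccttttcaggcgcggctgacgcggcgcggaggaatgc
The Itga8 window held 0 matches and the Itgb1 window 3. Over the 32851 RefSeq windows of this length, 42.2% held CAGAC, and of the 8 members with a window (Itga7 and Itgb3 had none in the table) 3 did: Itga1, Itgb1 and Itgb8. The CArG box of serum response factor, the main DNA element of smooth muscle genes, was found in 0 of these 8 windows and in 1.47% of all. The SMAD palindrome GTCTAGAC was in 0 of 8 and in 0.167% of all, and GGAATG, the TEAD element, was in 1 of 8 (Itgb1) and in 12.6% of all. A match describes these letters only and is not a measured binding site.

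Among the remaining alpha subunits of VSMCs, Itga9 (chr9:118606690-118901003, plus strand), whose α9β1 receptor binds tenascin C and osteopontin, ranked highest at 99.4, 154 and 293 CPM (lowest, median, highest). Itga1 (chr13:114953096-115101964, minus strand), the collagen-binding α1 subunit, was at 91.0, 113 and 179. The Itga1 gene encloses Pelo on the same strand, so reads of the pair may be split by the counting.

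Itga5 (chr15:103344286-103366763, minus strand), of the fibronectin receptor α5β1, was at 33.4, 59.9 and 163 in VSMCs. Itgav (chr2:83724397-83806916, plus strand) was at 29.1, 52.3 and 83.5, and Itga7 (chr10:128933818-128958282, plus strand), of the muscle laminin receptor α7β1, was at 30.8, 49.1 and 98.1. The ranges of these 3 genes overlapped and their order does not stand out from the spread between libraries.

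Among the remaining beta subunits of VSMCs, Itgb5 (chr16:33829665-33949338, plus strand), of the vitronectin receptor αvβ5, was at 187.1, 268 and 380 CPM. Itgb3 (chr11:104608000-104670476, plus strand), of the vitronectin and fibrinogen receptor αvβ3, was at 11.9, 19.1 and 40.0. Itgb8 (chr12:119158022-119238802, minus strand), of the TGF-β-activating αvβ8, was lowest at 3.94, 9.26 and 43.1, and the ranges of Itgb3 and Itgb8 overlapped.

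**Figure D1:**
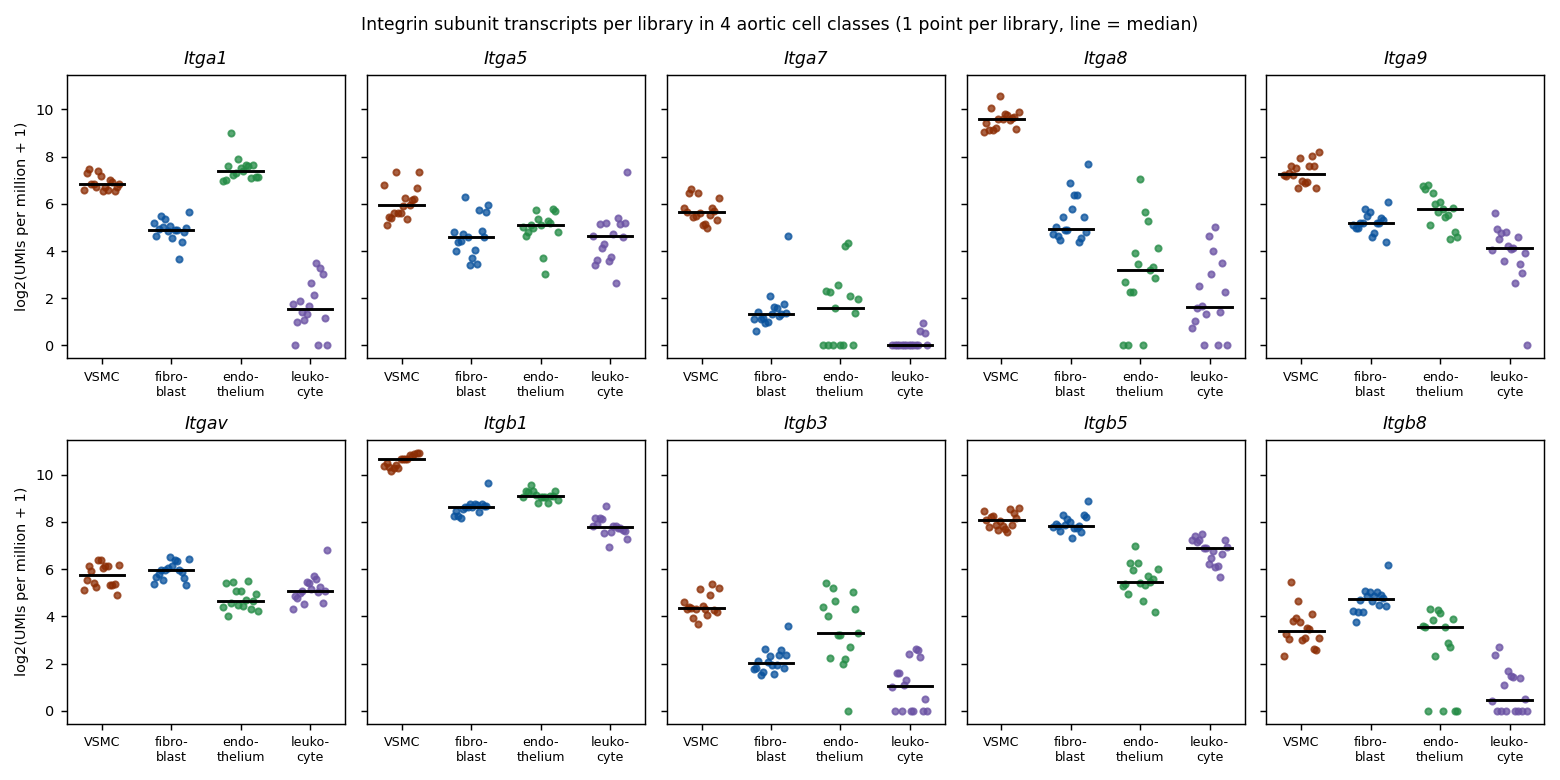
Level of each of the 10 integrin subunits in VSMCs, fibroblasts, endothelium and leukocytes, as log2(CPM + 1), with 1 point per library and the median of the libraries as a line (16 libraries, 15 for endothelium). Itgb1 was the highest of the 10 by median in every class, the Itga7 and Itga8 points of VSMCs lay above those of the other classes, and Itgb8 had its highest median in fibroblasts.

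Expressed as a share of the UMIs of 18 alpha subunits, Itga8 made up a median of 58.6% of the alpha transcripts of VSMCs (48.9 to 70.4% over 16 libraries). Itga9 made up 13.1%, Itga1 8.80%, Itga5 4.92%, Itga7 3.97% and Itgav 3.85%. Of the UMIs of 8 beta subunits in VSMCs, Itgb1 made up 83.8% (76.1 to 88.2%), Itgb5 14.2%, Itgb3 1.13% and Itgb8 0.485%. Of the 16 subunits that are not members, the highest in VSMCs were Itga3 with a median of 34.3 and Itga4 with 12.1 CPM. The members thus held most but not all of the integrin RNA of VSMCs.

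The makeup differed in the other classes. In fibroblasts Itgav was the leading alpha subunit by median with 27.7% (15.9 to 32.3%). Itga9 followed with 16.5%, Itga8 with 15.9% (9.50 to 38.2%), Itga1 with 12.9% and Itga5 with 10.9%. The ranges of these subunits overlapped each other and that of Itgav. Itgb1 made up 57.6% of the fibroblast beta transcripts, Itgb5 38.0% and Itgb8 4.05%, and the highest non-members were Itga2b with a median of 9.18 and Itga11 with 7.61 CPM. In endothelium Itga1 with 35.6% (24.1 to 48.9%) and the non-member Itga6 with 31.4% led the alpha transcripts, and Itgb1 made up 83.4% of the beta transcripts. The highest non-members there were Itga6 with 177 and Itgb4 with 38.2 CPM. In leukocytes the non-members Itgam (38.4% of alpha) and Itgb2 (33.4% of beta), the subunits of the leukocyte integrin αMβ2, stood beside Itgb1 with 37.3% and Itgb5 with 20.9%.

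**Figure D2:**
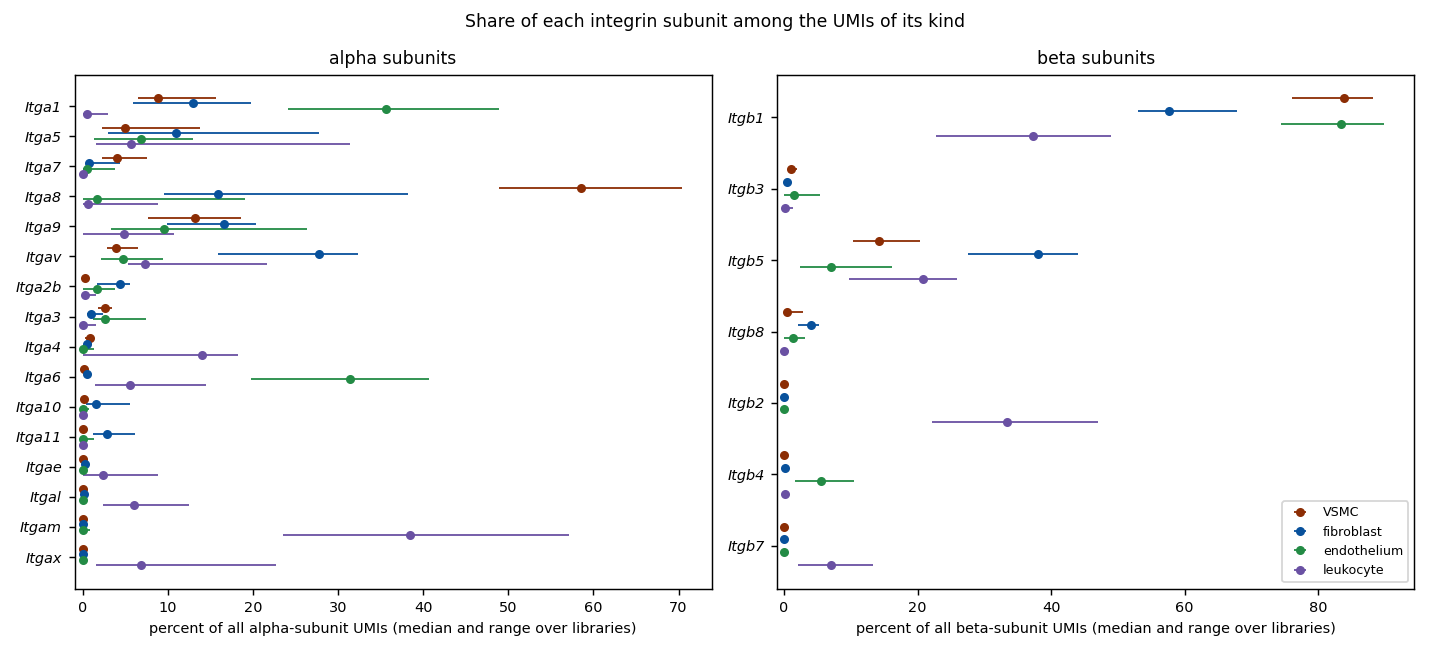
Share (%) of all alpha-subunit UMIs (18 genes) or beta-subunit UMIs (8 genes) held by each subunit in the 4 cell classes, as the median over libraries with the lowest and highest library as the bar. Itga8 held 58.6% of the alpha and Itgb1 83.8% of the beta transcripts of VSMCs, whereas Itgav (27.7%) led the alpha transcripts of fibroblasts by median.

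In single cells the order in VSMCs was much the same. With every cell thinned to 3000 UMIs, which left out 357 shallower VSMCs, a median of 98.2% of VSMCs had an Itgb1 UMI, 83.5% an Itga8 UMI, 52.1% an Itgb5 UMI, 34.9% an Itga9 UMI and 27.9% an Itga1 UMI. The shares were 14.7% for Itgav, 14.6% for Itga7, 12.7% for Itga5, 5.78% for Itgb3 and 2.76% for Itgb8. Without thinning they ran from 8.30% for Itgb8 to 100.0% for Itgb1, with 97.1% for Itga8. In thinned fibroblasts 7.75% of cells had an Itga8 UMI, 0.534% an Itga7 UMI and 0.654% an Itgb3 UMI. In thinned leukocytes, a class outside the muscle lineage, the share with an Itga8 UMI was 1.14% (unthinned 1.27%). The median of the libraries' median UMIs per cell was 10846 in VSMCs, 10760 in fibroblasts and 6233 in leukocytes.

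Between VSMCs and fibroblasts of the same libraries, 8 of the 10 subunits differed (edgeR quasi-likelihood test with the library as a block, Benjamini-Hochberg adjusted p below 0.05), beside 68% of all 11148 genes tested. Of these, 7 were higher and 1 was lower in VSMCs. The median log2 difference of the 10 subunits was 2.05, beside -0.03 for all genes.

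The muscle-rich subunits were led by Itga7 and Itga8. Itga8 had 19.6, 30.0 and 207 CPM as the lowest, median and highest of 16 fibroblast libraries, below all 16 VSMC libraries (523 to 1500.1), a log2 difference of 4.30 (SE 0.23, 19.7-fold, edgeR adjusted p = 5.7e-23). Itga7 was at 0.522, 1.54 and 23.7 in fibroblasts, below all 16 VSMC libraries (30.8 to 98.1), with a log2 difference of 4.85 (SE 0.22, adjusted p = 1.4e-25). Both were higher in VSMCs in 16 of 16 libraries and the ranges did not overlap. At these medians Itga7 in fibroblasts stood at 3.15% and Itga8 at 3.92% of the VSMC level, within the 0.945 to 8.84% at which 8 VSMC markers (Acta2, Tagln, Cnn1 and others) were found in fibroblasts. In leukocytes the same markers were at 0.159 to 0.766% and Itga8 at 0.278% of the VSMC level. The part of free or carried-over RNA in the fibroblast values was not tested. The highest value of both came from Smad3SmKO 18-week replicate 7, and without that library the log2 differences were 4.43 for Itga8 and 5.09 for Itga7.

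Itgb1, Itgb3, Itga1, Itga9 and Itga5 were also higher in VSMCs, but their fibroblast levels, at 15.99 to 38.9% of those of VSMCs, lay above the range of those markers. Itgb1 was at 289, 396 and 791 in fibroblasts, below every VSMC library, with a log2 difference of 2.02 (SE 0.12, 4.05-fold, edgeR adjusted p = 1.9e-21). Itgb3 was at 1.85, 3.06 and 11.2 in fibroblasts against 11.9 to 40.0 in VSMCs, a log2 difference of 2.76 (SE 0.19). Each of these 5 subunits was higher in VSMCs in 16 of 16 libraries. The log2 difference was 2.26 (SE 0.16) for Itga9 and 2.09 (SE 0.16) for Itga1, and 1.52 (SE 0.15) for Itga5, whose ranges overlapped with fibroblasts at 9.54, 23.3 and 77.1.

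Itgb8, of the TGF-β-activating αvβ8, was the 1 subunit that was lower in VSMCs. It was at 12.6, 25.6 and 70.5 CPM in fibroblasts against 3.94, 9.26 and 43.1 in VSMCs, a log2 difference of -1.39 (SE 0.20, 2.62-fold lower, edgeR adjusted p = 2.1e-08), with fibroblasts higher in 15 of 16 libraries and overlapping ranges. Among the 30 min digestions alone the log2 difference was -0.59 (adjusted p = 0.102). Itgav, the shared partner of β3, β5 and β8, was at 38.8, 61.1 and 89.2 in fibroblasts, a log2 difference of -0.18 (adjusted p = 0.0825) with fibroblasts higher in 14 of 16. Itgb5 was at 161, 229 and 474, a log2 difference of 0.19 (adjusted p = 0.208), with VSMCs higher in 9 of 16, and neither passed the test. Without Smad3SmKO 18-week replicate 4, which held 20 VSMCs, Itgav passed it (-0.22, adjusted p = 0.0405).

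Against endothelium, 8 of the 10 subunits were higher in VSMCs and 2 did not pass the test, beside 65.8% of all genes (list median log2 difference 1.54, all genes 0.03, 15 libraries). Itga8 was at 0, 8.26 and 131.8 CPM in endothelium, with 98 UMIs in all, and the log2 difference was 6.14 (SE 0.30, edgeR adjusted p = 2.2e-24). Itgb5 was at 17.3, 43.0 and 124, with a log2 difference of 2.66. Itga7 (26 UMIs in all in endothelium), Itga9, Itgb1, Itga5 and Itgav differed by 4.12, 1.81, 1.70, 1.37 and 1.11.

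Itgb3 differed least among those called, by 0.64 (adjusted p = 0.0224), and this call was lost without any of 6 single libraries (0.46 to 0.56): Smad3+/+ 10-week replicate 2, Smad3+/+ 18-week replicate 4, Smad3SmKO 10-week replicate 1 and Smad3SmKO 18-week replicates 1, 4 and 6. The collagen receptor subunit Itga1 ran the other way. It was at 124, 165 and 510 in endothelium and higher there in 14 of 15 libraries, but the fitted log2 difference of VSMCs from endothelium of -0.35 (adjusted p = 0.0658) did not pass. It passed without Smad3+/+ 18-week replicate 1 (-0.41), 2 (-0.41) or 4 (-0.37).

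The endothelial sums held 215 to 5992 CPM of the 8 VSMC markers, each marker at 0.322 to 10.5% of its VSMC level, and Itga8 at 1.08% and Itga7 at 4.13% lay within that range. They also held lymphatic endothelial markers, at a median of 492 summed CPM. Itgb8 (0, 10.6 and 18.8) differed by 0.49 (adjusted p = 0.211).

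Against leukocytes all 10 subunits were higher in VSMCs (median 2.99, all genes 0.11), beside 79.9% of all genes. The log2 differences ran from 0.43 for Itgav to 7.25 for Itga7, with 7.13 for Itga8, 4.93 for Itga1, 4.00 for Itgb3, 3.01 for Itga9, 2.96 for Itgb8, 2.62 for Itgb1, 1.38 for Itga5 and 1.10 for Itgb5. Itga7 (6 UMIs in all), Itga8, Itga1, Itgb3 and Itgb8 had median levels at or below 2.13 CPM in leukocytes. Leukocytes kept Itgb1 at 122, 219 and 407, Itgb5 at 49.2, 118 and 180, Itgav at 19.1, 32.9 and 112 and Itga5 at 5.17, 23.6 and 162.

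The remaining classes were compared with each other in the same way. Fibroblasts against endothelium gave 4 subunits higher and 4 lower, beside 61.6% of all genes. Itgb5 (2.47), Itgb8 (1.88), Itga8 (1.84) and Itgav (1.29) were higher in fibroblasts, with Itga8 at 3.92% and 1.08% of its VSMC level in the 2 classes, within the range of the VSMC markers in each. Itga1 (-2.44), Itgb3 (-2.12), Itga9 (-0.45, adjusted p = 0.0355) and Itgb1 (-0.32, adjusted p = 0.0181) were lower in fibroblasts, and the Itga9 call was lost without any of 5 single libraries (-0.43 to -0.37), namely Smad3+/+ 10-week replicate 2, Smad3+/+ 18-week replicates 1, 2 and 3 and Smad3SmKO 18-week replicate 2. Itga5 (-0.14, adjusted p = 0.552) and Itga7 (-0.72, adjusted p = 0.265) did not pass.

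Fibroblasts against leukocytes gave 9 subunits higher, beside 77.8% of all genes, with Itga5 not called (-0.14, adjusted p = 0.488). Itgb8 differed most (4.35), followed by Itga1 (2.84), Itga8 (2.83, higher in fibroblasts in 16 of 16 libraries), Itga7 (2.40) and Itgb3 (1.24). The log2 differences of Itgb5, Itga9, Itgb1 and Itgav were 0.91, 0.75, 0.61 and 0.61. Endothelium against leukocytes gave 7 higher and 2 lower, beside 67.2% of all genes, with the largest difference for Itga1 (5.28) and the lower pair Itgb5 (-1.56) and Itgav (-0.69). Itgb3 (3.36), Itga7 (3.12), Itgb8 (2.47), Itga9 (1.20) and Itgb1 (0.92) were higher in endothelium, and Itga5 (0.01, adjusted p = 0.981) was not called. In that comparison Itga8 (0.99, adjusted p = 0.0349), within the range of the VSMC markers in both classes, was not called without any of 8 single libraries (0.84 to 0.95): Smad3+/+ 10-week replicate 1, Smad3+/+ 18-week replicates 1, 4 and 5, Smad3SmKO 10-week replicate 1 and Smad3SmKO 18-week replicates 3, 4 and 6.

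Receptor partners and matrix ligands were read from fixed lists. Among 24 integrin ligands tested between VSMCs and fibroblasts, 8 were higher and 10 lower in VSMCs, 18 called in all, beside 68% of all genes. Npnt, the nephronectin ligand of α8β1, was higher by 5.17 on the log2 scale (SE 0.24), Lama5 of laminin by 3.82 and Tnc, the tenascin C bound by α9β1, by 1.39. Mfge8 (2.04), the fibronectin gene Fn1 (0.97), the collagen IV gene Col4a2 (0.87), Postn (0.79) and Lamb2 (0.53) were the remaining higher ligands. The osteopontin gene Spp1 (-6.48), Lamb1 (-4.70), Nid1 (-3.91), Vcam1 (-3.37), Lama2 (-3.33), Col1a1 (-2.33), Col3a1 (-2.20), Fbn1 (-1.78), Lamc1 (-1.18) and Tgfb1 (-1.10) were lower. Among 26 adhesion adaptors, which couple integrins to actin, 17 were higher and 6 lower in VSMCs, 23 called beside the same 68%. Flna (3.52), Lims2 (3.40), Actn1 (2.89), Tns1 (2.66), the vinculin gene Vcl (2.07) and the talin gene Tln1 (1.83) were higher. So were Fblim1 (2.44), Actn4 (2.12), Zyx (2.01), Tgfb1i1 (1.79), Fermt2 (1.67), Vasp (1.66), Ilk (1.24), Kank2 (0.76), Src (0.58), Lims1 (0.41) and Tns2 (0.31). The parvin gene Parvb (-3.58), Fermt3 (-1.47), Tln2 (-1.20), the paxillin gene Pxn (-1.08), Tns3 (-0.84) and Ptk2 (-0.25) were lower. Of the 10 non-member integrins tested, 2 were higher and 5 lower.

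Over the 63 sums of a library and class, the genes most like each subunit were found by Pearson correlation of log2(CPM + 1) among 15359 genes. These correlations are descriptions: the sums of 1 library share its depth and batch, and differences between classes set most of their size. Itga8 was closest to Lmod1 (r = 0.964), Hspb7 and Myl9, Itga7 to Ldb3 (0.956), Myocd and Csrp1, and Itgb1 to Csrp1 (0.946), Pdlim5 and Myl6. Itga1 was closest to Cdh13 (0.962), Cav1 and Cavin1, and Itga9 to Endod1 (0.904), Tns1 and Marveld1. Itgb3 was closest to A430105I19Rik (0.895), Glt28d2 and Actn1, and Itgb5 to Axl (0.890), Lgals1 and Pmepa1. Itgb8 was closest to Pdgfrl (0.872), Lrig1 and Olfml2b, Itgav to Ptprs (0.777), Col14a1 and Fzd7, and Itga5 to Psmd8 (0.763), Fam129b and Pdgfa.

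VSMCs were not uniform in their integrins. The study marked VSMCs of the root and proximal aorta by Notch3, Enpep and Mgp, and more distal ones by Ptprz1 and Tes. It reported that the cells marked by the 3 proximal genes overlapped little. Mgp was not part of the rule used here, so the Notch3/Enpep cells are not all of the study's proximal VSMCs. Aortic position was not measured in these files. Cells with at least 2 UMIs of Notch3 and Enpep together and none of Ptprz1 or Tes (357 cells, 14 to 72 per library) were compared with cells of the reverse pattern (3819 cells, 21 to 900 per library) in the 12 libraries that held both. Of the 9 subunits tested, 8 differed (edgeR with the library as a block), beside 24% of the 5616 genes tested. The Notch3/Enpep cells had less of 6 subunits and more of 2. Itgb8, with 21 UMIs against 361, was too low to test.

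Itga9 differed most, with medians of 76.7 CPM in Notch3/Enpep cells and 201 in Ptprz1/Tes cells, a log2 difference of -1.31 (SE 0.13, edgeR adjusted p = 1.5e-08), lower in 12 of 12 libraries. Itga8 was at 484 against 876 (-0.80, SE 0.08, adjusted p = 1.3e-08), lower in 12 of 12. Itgb5 was at 204 against 291 (-0.59, SE 0.10), lower in 11 of 12. These are the tenascin, nephronectin and vitronectin receptor subunits.

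Smaller or less deeply counted differences were found for 3 further subunits. Itgb3, with 51 UMIs in the Notch3/Enpep cells, was at 11.6 against 22.8 (-0.96, SE 0.27, edgeR adjusted p = 0.0111), lower in 11 of 12. Itgb1 was at 1435 against 1729 (-0.21, adjusted p = 0.00739), lower in 12 of 12. Itga5 was at 40.7 against 65.9 (-0.42, adjusted p = 0.0464), lower in 11 of 12, and its call was lost without any of 9 of the 12 libraries (-0.44 to -0.32), namely both libraries of each 10-week group, Smad3+/+ 18-week replicate 5 and Smad3SmKO 18-week replicates 2, 5, 6 and 7.

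The laminin receptor subunit Itga7 ran the opposite way, at 60.9 against 39.0 (0.68, SE 0.15, edgeR adjusted p = 9.0e-04), higher in Notch3/Enpep cells in 10 of 12 libraries. Itga1, the collagen receptor subunit, was at 147 against 108 (0.54, SE 0.10, adjusted p = 2.6e-04), higher in 11 of 12. Itgav was at 50.4 against 39.3 (0.12, adjusted p = 0.602), higher in 6 of 12 and not called.

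Pericyte and digestion differences moved with this contrast. Pericyte transcripts (at least 2 UMIs of Higd1b, Kcnj8 and Vtn together) marked 13.2% of the Notch3/Enpep cells and 3.35% of the Ptprz1/Tes cells. Heart muscle transcripts (at least 3 UMIs of Myh6, Tnnt2 and Myl3 together) marked 3.36% and 6.65%. In the Ptprz1/Tes cells Tnnt2 had 3659 UMIs, beside 47 of Myh6 and 5 of Myl3. Actc1, outside the rule, had 54 UMIs in the Notch3/Enpep cells and 37 in the Ptprz1/Tes cells. Whether the marked cells were pericytes or heart muscle was not tested. The Ptprz1/Tes cells met the pericyte rule through Kcnj8 alone. Of the 5 fixed pericyte markers, Higd1b and Vtn were found in the Notch3/Enpep cells and were at 0 UMIs in the Ptprz1/Tes cells. The other 3 leaned the opposite way or were level: Abcc9 was higher in the Ptprz1/Tes cells in 12 of 12 libraries (medians 11.9 and 61.7 CPM), Kcnj8 in 8 (14.5 and 19.1) and Rgs5 in 7 (285 and 287). With those cells left out of both sides, 4 subunits were called: Itga9 (-1.21), Itga8 (-0.72), Itgb5 (-0.54) and Itga7 (0.69). Itga1 (0.29, adjusted p = 0.0664), Itga5 (-0.41, adjusted p = 0.0953) and Itgb1 (-0.15, adjusted p = 0.0502) were then not called by edgeR and Itgb3 was too low to test. Notch3/Enpep cells were 8.86 to 60.9% of VSMCs in 30 min digestions and 0.900 to 7.05% in 60 min digestions. With the 30 min libraries alone 3 subunits were called (Itga8, Itga9 and Itgb5), and with the 60 min libraries alone 8. Itga8 and Itga9 passed the test under each alternative tried, whereas Itgb5 did not pass in Smad3SmKO libraries alone (-0.35, adjusted p = 0.0569).

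**Figure D3:**
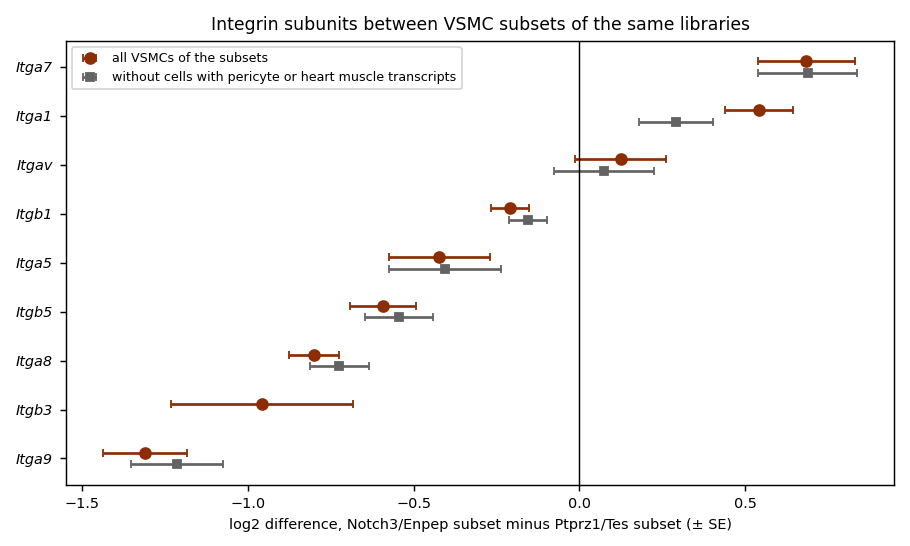
Log2 difference of each integrin subunit in Notch3/Enpep VSMCs from Ptprz1/Tes VSMCs of the same 12 libraries (edgeR estimate, bars ± SE), with all cells and without cells holding pericyte or heart muscle transcripts; Itgb8, and Itgb3 in the second set, were too low to test. Itga9, Itga8 and Itgb5 lay below 0 and Itga7 above 0 in both sets, at -1.31, -0.80, -0.59 and 0.68 with all cells.

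The ligand genes also differed between these cells. Of 19 ligands tested, 14 were called, 9 higher and 5 lower in Notch3/Enpep cells, beside 24% of all genes. Thbs1, encoding thrombospondin 1 (4.10), Tgfb3 (1.07), Vcam1 (0.94), Lama5 (0.76), Tgfb1 (0.64), Emilin1 (0.61), Mfge8 (0.32), Col4a1 (0.30) and Col4a2 (0.25) were the higher, and Postn (-2.11), the α8 ligand Npnt (-1.32), the elastic fiber gene Fbln5 (-0.88), Col1a1 (-0.59) and Fbn1 (-0.41) were the lower. Of 19 adaptors tested, 9 were called, beside the same 24%, with Lims1 (1.36), Tns3 (0.94), Tns2 (0.58) and Actn4 (0.41) higher and Tns1 (-0.51), Lims2 (-0.51), Fblim1 (-0.50), Actn1 (-0.44) and Flna (-0.27) lower. Without cells holding pericyte or heart muscle transcripts, 13 of 19 ligands and 8 of 18 adaptors were called, beside 22.4% of 4923 genes, and of those named Fbn1 and Tns3 were no longer among them. With the 30 min libraries alone 9 of 19 ligands and 4 of 18 adaptors were called, beside 9.64% of 5083 genes. Npnt was lower in the Notch3/Enpep cells, as Itga8 was.

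Between genotypes, none of the 10 subunits passed the test in VSMCs (edgeR with batch as a term over 16 libraries, 0 of 10 at 10 weeks and 0 of 10 at 18 weeks). Smad3SmKO 18-week replicates 5 and 7 were the only libraries of batch 5, so the batch term took up their levels. The fitted 18-week differences therefore rest on Smad3SmKO replicates 1, 2, 3, 4 and 6, in this and the other classes. The ranges and medians given beside them include all replicates. The background was 0% of 11711 genes at 10 weeks and 0.0342% at 18 weeks, where 4 genes passed. At an unadjusted p below 0.05 there were 224 and 562 genes, 1 of them an integrin subunit each time, and DESeq2 called 1 and 8 genes and no subunit. The smallest p of the 10 subunits belonged to Itgb3 at both ages.

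Itgb3 in Smad3+/+ VSMCs at 18 weeks was at 23.7, 18.8, 20.3, 28.8 and 40.0 CPM in replicates 1 to 5. In the 7 libraries labelled Smad3SmKO it was at 11.9, 18.4 and 35.8 as the lowest, median and highest, with 3 UMIs in the lowest. The groups overlapped: the log2 difference was -0.72 (SE 0.27, edgeR unadjusted p = 0.0174, adjusted p = 0.993). Within batches that held both genotypes it was -0.61, -0.23, -0.69 and -0.88, below 0 in 4 of 4. At 10 weeks the values were 34.9 and 20.6 in Smad3+/+ and 19.0 and 15.6 in Smad3SmKO, which did not overlap, with a log2 difference of -0.65 (SE 0.28, unadjusted p = 0.0335, adjusted p = 1). With digestion time Itgb3 differed by 0.76 on the log2 scale, which did not pass the test (adjusted p = 0.0543).

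Itga9 had the next smallest p at both ages. At 18 weeks it was at 147, 146, 158, 193 and 259.6 in Smad3+/+ replicates 1 to 5 and at 99.4, 184 and 293 as the lowest, median and highest of Smad3SmKO, with overlapping groups and a log2 difference of -0.38 (SE 0.23, edgeR unadjusted p = 0.116). Within batches it was 0.08, 0.15, -0.60 and -1.06. At 10 weeks it was at 245 and 124 in Smad3+/+ and at 115 and 119.8 in Smad3SmKO, a log2 difference of -0.60 (SE 0.30, unadjusted p = 0.0653).

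The abundant subunits overlapped between genotypes as well. Itga8 at 18 weeks was at 523, 689, 558, 743 and 785.6 in Smad3+/+ and at 549.9, 763 and 1051 in Smad3SmKO (lowest, median, highest), a log2 difference of 0.12 (SE 0.17). At 10 weeks Itga8 was at 1500.1 and 767 against 899 and 869, a log2 difference of -0.30 (SE 0.25), and without Smad3+/+ 10-week replicate 1 it was 0.10. Itgb1 was at 1269 to 1823 in Smad3+/+ and 1125 to 1949 in Smad3SmKO at 18 weeks, a log2 difference of -0.08 (SE 0.14). Itga5 was at 111, 33.4, 42.1, 61.4 and 69.9 against 40.7, 71.6 and 163, a log2 difference of 0.25 (SE 0.34).

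The other log2 differences at 18 weeks were 0.48 for Itgb8 (SE 0.48), -0.17 for Itga1, -0.15 for Itgb5, -0.08 for Itga7 and 0.02 for Itgav. The Itgb8 value ran from 0.0095 without Smad3SmKO 18-week replicate 1 to 1.84 without Smad3SmKO 18-week replicate 6, and was 0.03, 0.17, 0.29 and 0.30 without Smad3+/+ replicates 3, 1 and 2 and Smad3SmKO replicate 4 and 0.82 without Smad3+/+ replicate 5. The remaining differences at 10 weeks were -0.29 for Itga7, -0.28 for Itgb5, -0.19 for Itga1, -0.12 for Itgb8, -0.07 for Itgav, 0.01 for Itgb1 and 0.14 for Itga5. The median of the 10 was -0.08 at 18 weeks and -0.23 at 10 weeks, when 8 of 10 lay below 0, beside -0.01 for all genes at both ages. The difference between the 2 ages was tested directly and called 0 of 10 subunits (0 at an unadjusted p below 0.05), beside 0.00854% of all genes.

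**Figure D4:**
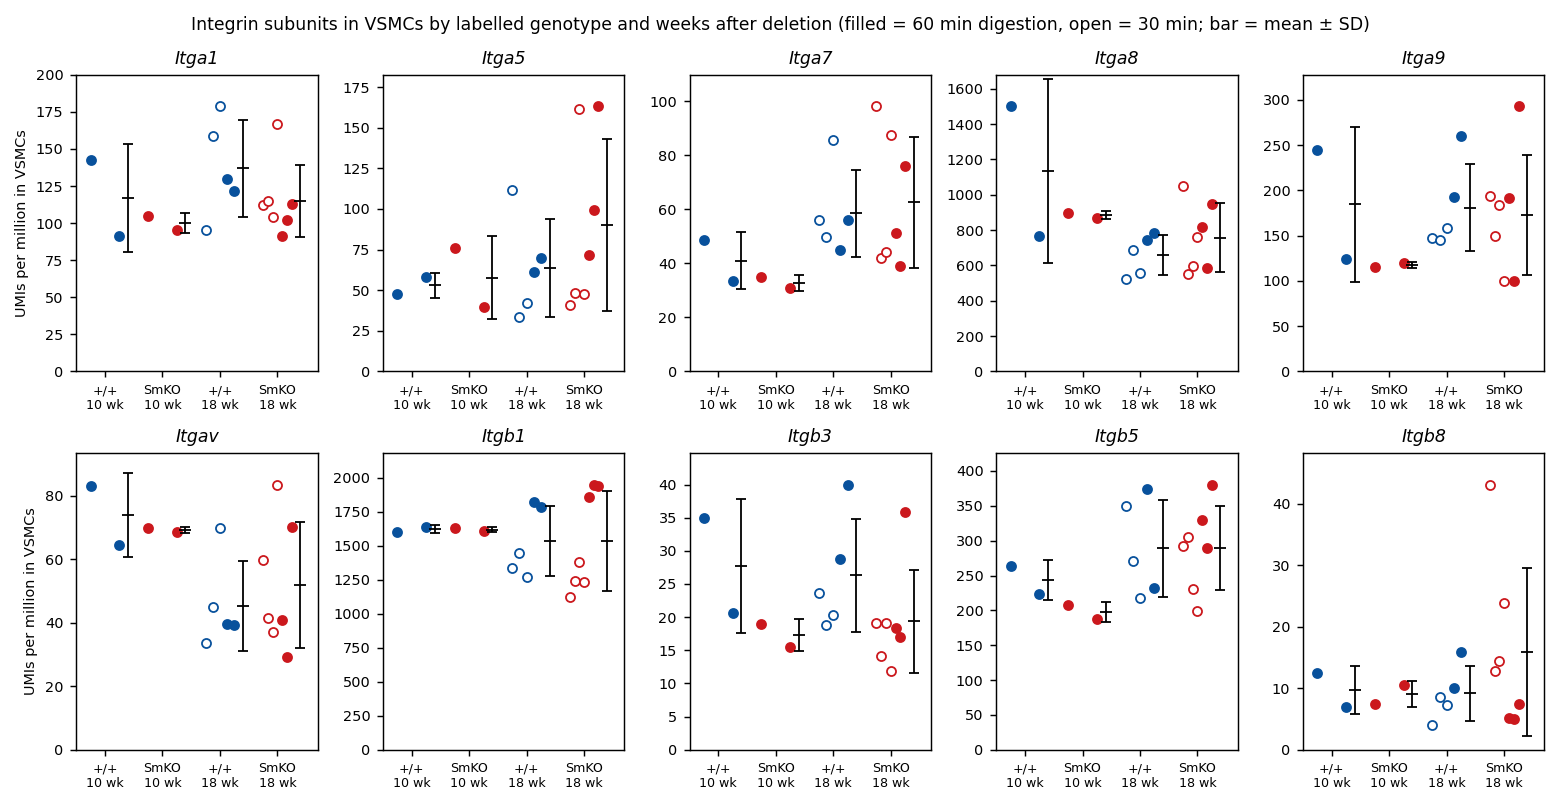
CPM of each integrin subunit in VSMCs, 1 point per library, in Smad3+/+ and Smad3SmKO mice at 10 and 18 weeks after deletion; filled points are 60 min and open points 30 min digestions, and bars are the mean ± SD (n = 2, 2, 5 and 7). The 2 genotypes overlapped at 18 weeks for each of the 10 subunits.

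In VSMCs the summed pericyte markers moved with the genotype labels at 18 weeks, with a median of 189 CPM (135 to 435) in Smad3+/+ and 513 (231.5 to 1481) in Smad3SmKO. Rgs5 held most UMIs of these markers in the VSMC subsets (16268 in Ptprz1/Tes cells, beside 2793 of Abcc9 and 793 of Kcnj8). Whether the sum followed pericytes was not tested. The 20 genes known to respond to tissue digestion summed to 7582 to 25592 and 7548 to 17903. The part of either in the integrin values was not tested. A sum over a class cannot tell fewer cells of a kind from less RNA per cell.

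Fibroblasts, endothelium and leukocytes, which were not targeted by Myh11-CreER, gave no call either (edgeR, 0% of 14343, 8094 and 8832 genes at both ages). In fibroblasts all 10 subunits had a fitted log2 difference above 0 at 18 weeks (median 0.20, all genes 0.01), and 1 of them, Itga1, had an unadjusted p below 0.05 (0.48, SE 0.22, unadjusted p = 0.0480, adjusted p = 1.00). Itga1 in fibroblasts ran from 11.7 to 35.7 in Smad3+/+ and from 27.0 to 49.4 in Smad3SmKO. The remaining 9 ran from 0.07 for Itgb3 and Itga9 to 0.51 for Itga5, with Itgb8 at 0.45, Itgb5 at 0.27, Itga8 at 0.22, Itgb1 at 0.18, Itga7 at 0.10 and Itgav at 0.10. The summed VSMC markers in these fibroblasts moved the same way, with a median of 1321 CPM (665 to 2137) in Smad3+/+ and 3227 (672 to 14140) in Smad3SmKO. Without Smad3SmKO 18-week replicate 7, the highest of them, all 10 subunits were fitted above 0 (median 0.20). That library shared batch 5 only with another Smad3SmKO library, so the batch term took up its level. Leaving it out therefore cannot show whether its markers shape the genotype difference. Without Smad3+/+ 18-week replicate 1 or 2 or Smad3SmKO 18-week replicate 4, 7 subunits were fitted above 0, and without Smad3SmKO 18-week replicate 3 it was 8. The part of the VSMC markers in the remaining libraries was not tested.

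At an unadjusted p below 0.05 there were 351 genes in fibroblasts, 292 in endothelium and 140 in leukocytes at 18 weeks, and DESeq2 called 3 genes in fibroblasts and 0 in endothelium.

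Endothelium held the smallest unadjusted p of the integrin subunits. Itgb5 there was at 38.3, 40.2, 30.0, 43.0 and 47.3 CPM in Smad3+/+ 18-week replicates 1 to 5. In Smad3SmKO replicates 1 to 6 it was at 75.0, 62.2, 124, 76.4, 17.3 and 64.0, above the Smad3+/+ range in 5 of 6 and below it in replicate 5. The log2 difference was 0.99 (SE 0.23, edgeR unadjusted p = 8.0e-04, adjusted p = 1), with 1.14, 1.27, 1.01 and 0.61 within the 4 batches that held both genotypes. Replicate 5, which went the other way, was the only endothelial sum of its batch. The batch term took up its level, so neither the fitted difference nor the 4 batches reflect it. With no filter on low counts this difference passed the test (adjusted p = 0.0277), whereas with cells of more than 1 class kept it was 0.15 and with the class thresholds doubled 0.62, neither of which passed.

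Itga9 in endothelium was lower in the same 4 batches, with a log2 difference of -0.79 (SE 0.26, edgeR unadjusted p = 0.0076, adjusted p = 1). Itga1 there had one of 0.57 (SE 0.23, unadjusted p = 0.0250, adjusted p = 1). The others tested were 1.44 for Itga8 (SE 0.90), -0.74 for Itgb3 (SE 0.55), 0.14 for Itga5, 0.05 for Itgav and -8.87e-04 for Itgb1. These sums were small, with 170 and 237 UMIs of Itgb5 in the 2 groups. Summed VSMC markers in endothelium had medians of 491 and 714 CPM in Smad3+/+ and Smad3SmKO, and summed fibroblast markers, the class richer in Itgb5, 1067 and 1015. Their part in these values was not tested. In leukocytes the 6 subunits tested differed by 1.32 for Itga8 (SE 0.76), 0.47 for Itga5, 0.34 for Itgb5, 0.33 for Itgav, 0.17 for Itgb1 and -0.19 for Itga9, and none passed.

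A test of whether the genotype difference itself differed between VSMCs and fibroblasts called 0 of 10 subunits and 0% of 14191 genes at both ages. At 18 weeks 4 subunits had an unadjusted p below 0.05: Itga1 (-0.70), Itgb5 (-0.44), Itga9 (-0.38) and Itgb3 (-0.75), each lower in VSMCs relative to fibroblasts, with 609 such genes in all (edgeR, each adjusted p = 1). With no filter on low counts the Itga1 difference passed (adjusted p = 0.0201).

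**Figure D5:**
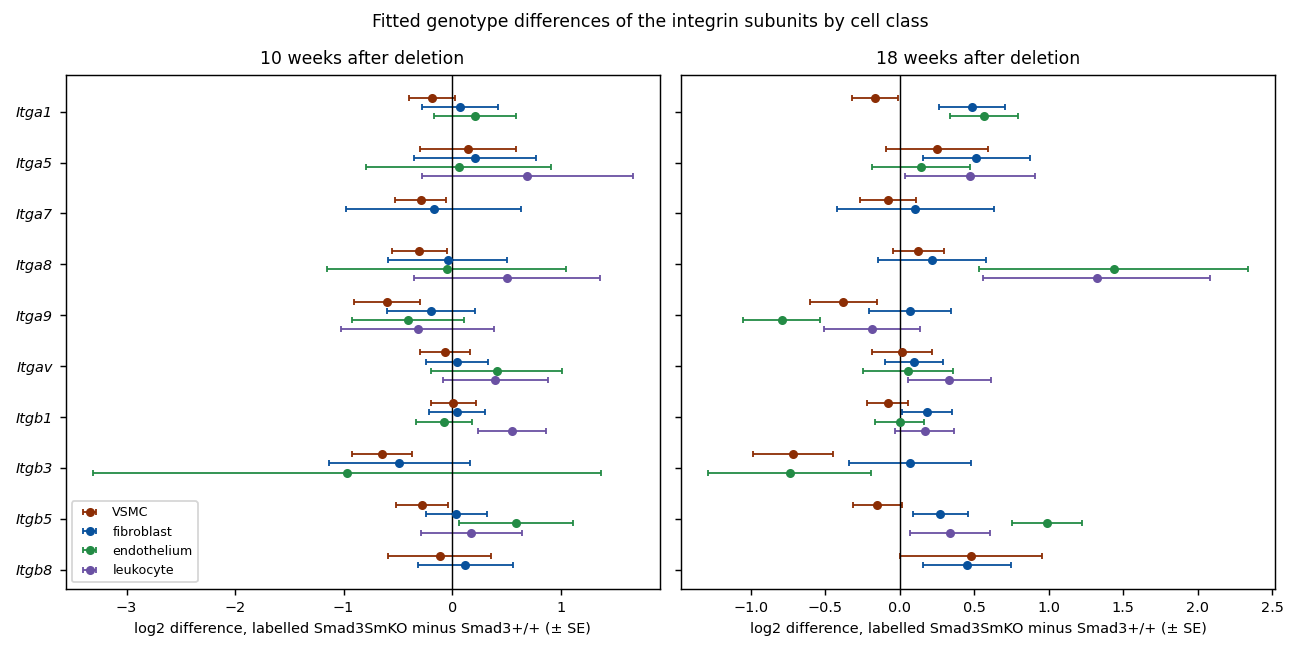
Fitted log2 difference of Smad3SmKO from Smad3+/+ (edgeR, bars ± SE) for each integrin subunit in the 4 cell classes at 10 and 18 weeks after deletion; subunits too low to test in a class are not drawn. None passed an adjusted p of 0.05, and the values at 18 weeks included 0.99 for Itgb5 in endothelium and -0.72 for Itgb3 in VSMCs.

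The ligands and adaptors gave the same count in VSMCs. Of 25 ligands 0 passed at either age, with 13 fitted above 0 and 12 below at 18 weeks (median 0.005) and 5 above and 20 below at 10 weeks (median -0.24). Of 24 adaptors 0 passed, with 14 above and 10 below at 18 weeks (median 0.02) and 3 above and 21 below at 10 weeks (median -0.14), beside a median of -0.01 for all genes at both ages. The ligand with the smallest p at 18 weeks was Postn, the periostin gene (-0.60, SE 0.18, edgeR unadjusted p = 0.0041, adjusted p = 0.822), followed by Emilin1 (-0.46), Lama4 (0.43) and Col1a1 (-0.41). The adaptors with the smallest p were Tns3 (0.42), Fblim1 (-0.37), Zyx (-0.17) and Actn1 (-0.19). Of the 4 non-member integrins tested, Itga10 differed by 0.94, Itga4 by -0.45, Itga2b by 0.38 and Itga3 by 0.02, and none passed.

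Digestion time was the label with which a subunit did differ in VSMCs. Among the 12 libraries at 18 weeks, Itgb1 was at 1125, 1269 and 1449.6 (lowest, median, highest) in the 7 digested for 30 min and at 1785, 1823, 1859, 1942 and 1949 in the 5 digested for 60 min, without overlap. The log2 difference was 0.66 (SE 0.14, edgeR with genotype as a term, adjusted p = 0.0154), and Itgb1 was the 1 subunit of 10 called, beside 3.32% of 10074 genes. Itgb3 (0.76, adjusted p = 0.0543), Itga9 (0.54) and Itgb5 (0.37) had an unadjusted p below 0.05 and did not pass. The remaining log2 differences were 0.44 for Itga5, 0.34 for Itga8, -0.06 for Itgav, -0.08 for Itga7, -0.10 for Itga1 and -0.47 for Itgb8. The count of subunits called was 2 without Smad3SmKO 18-week replicate 5 and 3 without Smad3SmKO 18-week replicate 6. All 5 of the 60 min libraries were labelled with the tracer and came from batches 5 and 6, whereas none of the 30 min libraries did, so digestion time, batch and tracer label cannot be told apart. Tracer transcripts themselves were at 0 UMIs in the 2 Smad3+/+ libraries among the 5. In the same contrast, 5 of 23 ligands were higher after 60 min, Tnc (2.36), Fn1 (1.17), Postn (1.16), Col1a1 (0.98) and Fbn1 (0.65), and 1 of 24 adaptors, Lims1 (-0.86), was lower. The mix of VSMC subsets also moved with digestion time. At 18 weeks Notch3/Enpep cells were 8.86 to 60.9% of VSMCs after 30 min and 4.16 to 7.05% after 60 min. Ptprz1/Tes cells were 8.70 to 27.6% and 36.0 to 51.7%. Itgb1 was lower in Notch3/Enpep cells, as given above (-0.21). The part of this mix in the digestion differences of subunits, ligands and adaptors was not tested.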

How the data were processed

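Cells sorted from 16 mouse aortas, stained for DNA and negative for propidium iodide, were sequenced on the 10x Genomics 3′ v3 platform. The authors deposited UMI counts per gene and cell, aligned to mm10 with a GFP sequence; the submitters' processing notes name Cell Ranger 6 and Seurat 4, and the matrix headers Cell Ranger 4.0.0. UMI counts correct for PCR copies, and only the 3′ end of a transcript is counted. Cells with 600 to 6000 genes, 2000 to 50000 UMIs and under 25% mitochondrial UMIs were kept. No doublet caller was run, but cells meeting the rule of more than 1 class were left out. Counts were summed per library and class, leaving out sums of under 10 cells (endothelium of Smad3SmKO 18-week replicate 7, with 3 cells).

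Sums were tested with edgeR 4.0.16 (quasi-likelihood, TMM scaling, low counts filtered with filterByExpr) in R 4.3.3, and p-values were Benjamini-Hochberg adjusted over all genes tested, with a threshold of 0.05. Genotype was fitted at each age with batch as a term over 16 libraries. Batch 5 held only Smad3SmKO 18-week replicates 5 and 7, which therefore added no contrast of genotypes. Classes and VSMC subsets were fitted with the library as a block. Each library is 1 mouse. For genotype and digestion, p-values measure the spread between mice that is left after the other terms of the fit. With the library as a block, they measure how far the difference between classes or subsets varied from mouse to mouse. On simulated counts the fit recovered 46% of 100 genes changed by 1 on the log2 scale and 86% of 100 changed by 2 for genotype in VSMCs at 18 weeks (33% and 81% at 10 weeks). There were 9 false calls at 18 weeks and 10 at 10 weeks. The fitted genotype differences of the subunits in VSMCs were all smaller than 1, and recovery at such sizes was not simulated. The alternatives included DESeq2 1.42.0, other filters and class rules, other sets of libraries and leaving out each library. Sequences came from RefSeq and gene positions from GENCODE vM21. Tables and figures were made with Python 3.11.15, pandas 2.3.3 and matplotlib 3.10.9.

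The rule named all 10 subunits in every class and comparison; of the 16 other subunits the 2 highest per class, and of 25 ligands and 26 adaptors those called and the 4 with the smallest p in VSMCs at 18 weeks. Ligands and adaptors are given for VSMCs against fibroblasts and within VSMCs only, and genotype values outside VSMCs are listed at 18 weeks and otherwise plotted. The members and lists were chosen with earlier results of these data known.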

Additional observations from a re-analysis of the deposited data

Results flagged for a closer look

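In 40 sets of values, each of the 10 subunits in VSMCs and in fibroblasts of the Smad3+/+ and Smad3SmKO 18-week groups, 9 had 1 library whose gap to the nearest of the others took up most of the range (Dixon's test at 95%); chance gives about 1 in 20. Of the 9, 7 belonged to Smad3SmKO 18-week replicate 7. Its fibroblasts (192 cells) had 23.7 CPM of Itga7 (0.918 to 2.36 in the other 6 libraries of the group), 207 of Itga8 (21.0 to 42.3) and 791 of Itgb1 (289 to 413). They also had 11.2 of Itgb3 (1.85 to 5.05), 474 of Itgb5 (195 to 313) and 70.5 of Itgb8 (17.3 to 32.8). Its VSMCs had 35.8 of Itgb3 (11.9 to 19.1) on 302 UMIs. The other 2 libraries held few VSMCs. Itga1 was at 167 in Smad3SmKO 18-week replicate 4 (91.0 to 115 in the others) on 42 UMIs of 20 cells, and Itga7 was at 85.7 in Smad3+/+ 18-week replicate 3 (44.8 to 56.2) on 59 UMIs of 46 cells. The summed VSMC markers in fibroblasts were at 14140 CPM in replicate 7 and at 672 to 3925 in the other 6 libraries of its group; their part in the fibroblast values was not tested.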

How the results depend on the processing

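The counts of subunits called between classes stayed within 1.5 times under each alternative, from 7 to 9 for VSMCs against fibroblasts and 10 for VSMCs against leukocytes. In the comparison of Notch3/Enpep with Ptprz1/Tes VSMCs, the 8 subunits called became 4 without cells holding heart muscle or pericyte transcripts, 5 with Smad3+/+ libraries alone, 5 with Smad3SmKO libraries alone and 3 with 30 min digestions alone; these 4 alternatives, and the split of the class comparisons by digestion time, were chosen after seeing the data. With no filter on low counts, digestion called 3 subunits, the VSMC-against-fibroblast genotype difference at 18 weeks 1, and genotype in endothelium at 18 weeks 1. Over all genes, genotype in VSMCs at 18 weeks called 1 to 105 genes where 4 were called (105 with no filter), at 10 weeks 0 to 48 where 0 were, and in endothelium at 18 weeks 0 to 69.

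Leaving out each library in turn gave 7 to 8 subunits for the VSMC subsets, 1 to 3 for digestion, 8 to 9 for VSMCs against fibroblasts and 0 for each genotype comparison. For genotype at 18 weeks, leaving out Smad3SmKO replicate 5 or 7 tests little, because the batch term takes up their levels. Where an arm was left with 1 library, it was assumed to vary like the other groups. The fitted log2 differences crossed 0 for Itga1 (-0.36 to 0.0327), Itga5 (-0.39 to 0.52), Itga8 (-0.61 to 0.10), Itgb1 (-0.12 to 0.17) and Itgb8 (-0.36 to 0.25) at 10 weeks in VSMCs, each without Smad3+/+ replicate 1, and Itga5 and Itgb8 also without Smad3SmKO replicate 1. At 18 weeks they crossed 0 for Itga5 (-0.0942 to 0.51), Itga7 (-0.25 to 0.0685), Itga8 (-0.0666 to 0.29) and Itgav (-0.17 to 0.22), and for Itga5 between endothelium and leukocytes (-0.086 to 0.0616). None of these had passed the test.

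The direction also turned in these cases, and the cause was not tested. For genotype in VSMCs at 18 weeks, the 60 min digestions alone gave -0.24 for Itga8, -0.29 for Itgav, 0.26 for Itgb1, 0.0864 for Itgb5 and -1.23 for Itgb8, and the 30 min digestions alone -0.0279 for Itga5 and 0.0761 for Itga7. Without the batch term the values were 0.0609 for Itga7, 0.0244 for Itgb1, 0.0223 for Itgb5 and -0.0052 for Itgb8, and with digestion time in place of batch 0.07 for Itga7 and -0.11 for Itgb8. Itga1 in endothelium was -0.13 with 60 min digestions alone. In both classes the 60 min genotype values rest on Smad3SmKO replicate 6, the only Smad3SmKO library of that digestion that shared a batch with Smad3+/+. In the VSMC subsets Itga5 was 0.18 with 30 min digestions alone and Itgav -0.0021 with no filter. With cells of more than 1 class kept, VSMCs differed from endothelium by 0.73 for Itga1 and -0.73 for Itgb8, fibroblasts from endothelium by -1.02 for Itga8 and from leukocytes by -0.0437 for Itga7, and endothelium from leukocytes by 0.15 for Itgav and 0.53 for Itgb5. With 30 min digestions alone Itgb3 was -0.0769 between VSMCs and endothelium and Itga5 0.16 between fibroblasts and leukocytes (0.0117 with no filter). With 60 min digestions alone Itga9 was 0.22 and Itgb1 0.0687 between fibroblasts and endothelium. Itga5 between endothelium and leukocytes was -0.0093 with no limits on cells, -0.0394 with at least 50 cells per sum and -0.0918 with 60 min digestions alone.

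With 1 library left out of the comparison of VSMC subsets, 135 of the values of single subunits kept their direction and side of the threshold and 9 did not, all of them of Itga5. Only 12 of the 16 libraries entered that fit. Leaving out any other library could not change it, so the 135 include values that were fixed in advance. No paired analysis was possible because the labels give no replicate numbers shared between groups; batch, which the labels do give, was a term in the genotype fits, and the library was a block in the fits of classes and VSMC subsets. Leaving out single libraries was not run for the VSMC-against-fibroblast genotype difference. Depth limited Itgb8, Itgb3 and Itga7 most, with 755, 2078 and 4058 UMIs in VSMCs, and the 10-week groups held 2 mice each.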
